A study of Mus musculus with 10 samples.

Results

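The gene segments of the antibody chains were examined in whole 4T1 tumors, 4T1 being a mammary carcinoma line that originated in a BALB/c mouse. Members were the rows of the count table named Ighv, Igkv or Iglv (variable genes of the heavy, kappa and lambda chains), the constant region genes Ighm, Ighd, Ighg1, Ighg2b, Ighg2c, Ighg3, Ighe, Igha, Igkc, Iglc1, Iglc2 and Iglc3, and Jchain. They came to 116 of 17864 genes, with 21 Ighv, 79 Igkv and 3 Iglv genes, 12 constant genes and Jchain. The reference annotation (GENCODE M21, mm10) holds 361 genes of these names, 229 of them not pseudogenes, and the table holds 20 of its 113 Ighv genes and 79 of its 100 Igkv genes that are not pseudogenes. The remaining Ighv member, Ighv1-14, is annotated as a pseudogene. Both groups were 4T1 tumors with Cas9 and a guide RNA, either a control guide (sgCon, n = 5) or a guide against Wwtr1, the gene of TAZ (sgTaz, n = 5). The methods give female BALB/c or SCID mice, 6 to 8 weeks of age, as hosts of cells placed in the mammary fat pad, SCID mice being a strain that lacks mature B and T cells, and the host of the sequenced tumors is not stated. RNA of all cells of a tumor was measured together, so that fewer antibody-producing cells and less RNA per cell cannot be told apart. Total counts ran from 14753922 to 19595821 over the sgCon tumors and from 12185383 to 18395558 over the sgTaz tumors.

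An antibody is built from paired heavy and light chains. Each developing B cell joins a single V gene to D and J segments for its heavy chain and a V gene to a J segment for a kappa or lambda light chain, and its daughter cells keep that choice. The constant gene sets the isotype. Naive B cells splice the same transcript to Ighm or Ighd, and class switch recombination later brings an Ighg, Ighe or Igha gene next to the V region. Plasma cells, the antibody-secreting descendants of B cells, hold far more immunoglobulin RNA than other B cells, and J chain links the units of secreted IgM and IgA. Mouse light chains are mostly kappa. The heavy chain constant genes lie on chromosome 12 of mm10, from Igha at chr12:113254830-113260236 to Ighm at chr12:113418558-113422730 (minus strand). Igkc lies at chr6:70726435-70726966 (plus strand), the lambda genes on chromosome 16 and Jchain at chr5:88519809-88527891 (minus strand). The reference is of the C57BL/6 strain. BALB/c mice carry other V gene alleles and an Ighg2a gene in place of Ighg2c, so that V genes and Ighg2c are named here as the reference names them, and the effect of the strain on the counts was not tested.

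The end of a V gene's coding sequence reaches into the third complementarity determining region, the part of an antibody that varies most. The last 60 coding bases are shown for some of the V genes that led their locus in at least 1 tumor or in mean use, chosen because their shares set single tumors or groups apart or were highest on average, 5' to 3' on the coding strand, from the GENCODE M21 transcripts. Capitals mark the codon of the conserved cysteine, found as a cysteine codon with a tyrosine codon 2 codons before it.
Igkv3-1: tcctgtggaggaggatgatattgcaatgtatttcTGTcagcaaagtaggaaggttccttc
Igkv3-2: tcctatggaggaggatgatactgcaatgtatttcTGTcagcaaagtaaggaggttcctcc
Igkv6-25: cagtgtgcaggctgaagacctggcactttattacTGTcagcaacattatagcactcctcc
Igkv12-44: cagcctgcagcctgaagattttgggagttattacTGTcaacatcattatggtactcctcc
Igkv15-103: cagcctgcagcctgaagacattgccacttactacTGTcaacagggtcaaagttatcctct
Igkv6-32: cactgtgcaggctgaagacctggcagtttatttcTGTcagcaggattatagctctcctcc
Iglv1: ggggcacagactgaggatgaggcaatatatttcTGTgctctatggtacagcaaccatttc
Ighv11-2: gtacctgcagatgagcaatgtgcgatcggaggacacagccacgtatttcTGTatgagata
Ighv2-2: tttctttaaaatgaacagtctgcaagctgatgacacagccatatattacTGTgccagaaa
Igkv3-1 (chr6:70704118-70704177) and Igkv3-2 (chr6:70699008-70699067) lie on the plus strand, 22.3 and 27.4 kb from Igkc, and their ends differ at 5 of 60 bases. Igkv6-25 (chr6:70215898-70215957) and Igkv15-103 (chr6:68437866-68437925) are also on the plus strand, and Igkv12-44 (chr6:69814631-69814690) and Igkv6-32 (chr6:70074024-70074083) are on the minus strand. Iglv1 (chr16:19085017-19085076), Ighv11-2 (chr12:114048241-114048300) and Ighv2-2 (chr12:113588267-113588326) are on the minus strand. Of the 79 Igkv genes, 51 were at least 90% identical in transcript sequence to another annotated V gene of the locus, as were 15 of the 21 Ighv genes. Reads can thus be split between relatives or left uncounted. The lambda constant genes show the same limit. Their coding sequence is printed for 90 bases from the longest stretch that the starts of the 3 genes share, with capitals at the 21 positions where they are not all alike.
Iglc1: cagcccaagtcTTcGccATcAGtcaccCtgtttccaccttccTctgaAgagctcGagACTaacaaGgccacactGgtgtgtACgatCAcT
Iglc2: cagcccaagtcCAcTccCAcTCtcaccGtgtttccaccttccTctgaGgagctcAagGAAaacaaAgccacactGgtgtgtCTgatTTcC
Iglc3: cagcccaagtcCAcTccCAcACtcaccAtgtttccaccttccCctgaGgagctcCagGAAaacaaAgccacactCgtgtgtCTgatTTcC
These stretches lie on the minus strand, at chr16:19061980-19062069, chr16:19198761-19198850 and chr16:19065590-19065679. Iglc2 and Iglc3 differ at 5 of these 90 bases and were 96.2% identical over the coding sequence, so that their separate counts are uncertain, while Iglc1 was 73.5% identical to Iglc2.

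Wwtr1 was at 192, 181, 115, 171 and 156 CPM (counts scaled to the TMM-normalized total of a tumor) in sgCon tumors 1 to 5 and at 86.6, 104, 109.9, 139 and 102 CPM in sgTaz tumors 1 to 5. The groups overlapped through sgCon tumor 3 and sgTaz tumor 4. The log2 fold change was -0.59 (SE 0.15, edgeR adjusted p = 0.0960). Some tumors stood apart before any comparison. Immunoglobulin genes had 811 counts in all in sgTaz tumor 1, against 3004 to 17863 in the other sgTaz tumors and 18186 to 85306 in sgCon tumors. Among sgTaz tumors, tumor 5 had 446 counts of Ms4a1, the gene of the B cell surface protein CD20, and 3252 of Glycam1, a mucin of lymph node venules, whereas the other 4 had 0 to 40 and 0 to 3.

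Immunoglobulin RNA was less abundant in sgTaz tumors, with large differences within both groups. All members together were at 2825, 4240.0, 5321, 1009 and 3571 CPM in sgCon tumors 1 to 5 and at 51.6, 404, 940.0, 243 and 1299.7 CPM in sgTaz tumors 1 to 5. Only sgTaz tumor 5 reached into the sgCon range, above sgCon tumor 4. The sgCon mean of 3393 ± 1618 CPM was 5.78 times the sgTaz mean of 588 ± 517 CPM (SD, n = 5 each), and the highest tumor was 103 times the lowest. As a share of all counts, the members took 0.274, 0.432, 0.525, 0.0992 and 0.353% in sgCon tumors and 0.00521, 0.0398, 0.0954, 0.0247 and 0.132% in sgTaz tumors. Counts were found for 96 to 116 of the 116 genes in sgCon tumors and for 39, 55, 86, 61 and 106 in sgTaz tumors 1 to 5.

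No member passed an adjusted p of 0.05 with edgeR's quasi-likelihood test, in which 14816 genes were tested and 0% of them were called lower and 0.00675% higher. The smallest adjusted p of a member was 0.0824, for Igkv4-68, a kappa V gene at 6.61, 11.6, 3.37, 1.33 and 6.16 CPM in sgCon tumors and 0.255, 0.0646, 0.375, 0.243 and 1.09 CPM in sgTaz tumors (log2 fold change -3.84). The filter on low counts kept 59 members (40 Igkv, 4 Ighv and 2 Iglv genes, the 12 constant genes and Jchain), 55 of which had fewer than 5 sgTaz tumors over the minimum of 0.626 CPM, so the counts over these 59 lend no support. Of these 59, 37 were lower at an unadjusted p below 0.05 (all genes tested, 11.9%) and 0 were higher (all genes, 9.86%). Without the filter, all 116 were fitted. The log2 fold change was below 0 for 110 of them, and in 72 it came with an unadjusted p below 0.05, which is 62.1% of members against 10.4% of the 17812 genes fitted. The median log2 fold change was -2.65 over the members and -0.01 over all genes fitted. By locus, 50 of 79 Igkv genes, 11 of 21 Ighv genes, 1 of 3 Iglv genes, 9 of 12 constant genes and Jchain were lower at this p. All 5 sgCon tumors were above all 5 sgTaz tumors for 10 of the 116 members (8.62%; all 17864 genes, 2.08%), namely Ighg1, Igkc, 5 Igkv genes with Igkv3-2 and Igkv4-68 among them, and 3 Ighv genes, and the reverse held for 0 members (all genes, 2.09%). The 3 Ighv genes, Ighv1-15, Ighv5-12 and Ighv1-54, had 1 or 2 counts in their lowest sgCon tumors and 0 or 1 in sgTaz tumors, so their separation lies near the floor.

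**Figure D1:**
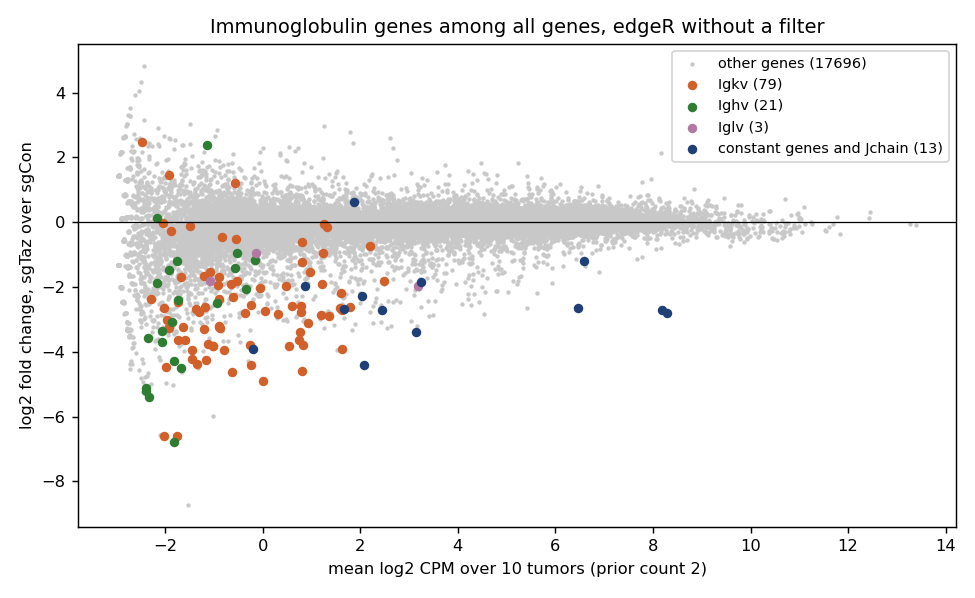
Log2 fold change of sgTaz over sgCon tumors (vertical axis, edgeR without a filter) against mean log2 CPM over the 10 tumors (horizontal axis) for 17812 genes, with the 116 immunoglobulin genes in color by locus and all other genes in grey. Most colored points lie below 0, with a median of -2.65, while all genes center at -0.01.

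The call depended on the tool and on a tumor. With DESeq2, 16 of the 59 members were lower at an adjusted p below 0.05 (all genes tested, 3.60%) and 0 were higher (all genes, 3.61%). Limma-voom with sample quality weights gave 22 lower (all genes, 5.80%) and 0 higher (all genes, 4.63%). Both tools called 13 of these, among them Igkc, Ighg1, Ighg2c, Jchain and Igkv3-2. Without sgTaz tumor 5, edgeR called 15 of 63 members lower (all genes, 0.868%), including Ighd, Ighe, Ighg3, Iglc2 and Igkv3-2. The tumor left out had the most immunoglobulin RNA of the sgTaz tumors, so these calls lend no support. Igkv3-2 was among 6 members called in all 3 of these fits. For the overlaps between fits the share of all genes is not given, so the counts of shared calls lend no support.

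The constant genes with the most RNA per length were Igkc and Ighg1, the chain of IgG1. Igkc was at 896, 1457, 1825, 386 and 1314 CPM in sgCon tumors and at 9.67, 139, 273, 59.4 and 337 CPM in sgTaz tumors. The groups did not overlap, with sgCon tumor 4 next to sgTaz tumor 5. Its log2 fold change was -2.84 (SE 0.75, edgeR adjusted p = 0.0972). Ighg1 was at 1057, 1284, 1567, 380.0 and 1026 CPM in sgCon tumors and at 8.47, 189, 323, 46.5 and 228 CPM in sgTaz tumors. Again all sgCon tumors were higher, the nearest being sgCon tumor 4 and sgTaz tumor 3. The log2 fold change of Ighg1 was -2.74 (SE 0.74, edgeR adjusted p = 0.101). Divided by exon length, the group means were 2209.9 and 307 CPM per kb for Igkc and 410.1 and 61.4 CPM per kb for Ighg1, in sgCon and sgTaz tumors.

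Ighm, the chain of IgM, did not separate the groups. It was at 117, 202, 426, 57.1 and 254 CPM in sgCon tumors and at 25.2, 15.5, 63.4, 66.9 and 285 CPM in sgTaz tumors. The highest sgTaz tumor, number 5, was above 4 of the 5 sgCon tumors, while sgTaz tumors 1 and 2 were below all of them. The log2 fold change was -1.21 (SE 0.74, edgeR adjusted p = 0.358). With 1 tumor left out it was -2.30 to -0.78 (edgeR adjusted p of 0.0802 to 0.577). Ighd, spliced from the same transcripts in naive B cells, was at 41.7, 49.4, 209.7, 16.7 and 101 CPM in sgCon tumors and at 0.318, 0, 2.20, 0.728 and 36.4 CPM in sgTaz tumors. In this gene sgTaz tumor 5 lay inside the sgCon range and the other 4 sgTaz tumors far below it. The log2 fold change of Ighd was -3.42 in edgeR with all tumors (adjusted p = 0.149) and -6.59 without sgTaz tumor 5 (adjusted p = 0.0410). The second fit leaves out the sgTaz tumor with the most Ighd, so its call lends no support.

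Among the constant genes, Ighe, the chain of IgE, split the sgTaz tumors most sharply. It was at 6.49, 13.3, 24.6, 1.61 and 11.1 CPM in sgCon tumors and at 0, 0.129, 0.0536, 0 and 14.3 CPM in sgTaz tumors. The 196 counts of sgTaz tumor 5 stood against 0 to 2 counts in the other 4, where 3 counts would be between 1.63e-05% and 2.46e-05% of all counts. Of the other IgG genes, Ighg3 was at 7.15, 86.0, 61.4, 5.11 and 39.2 CPM in sgCon tumors and at 0.127, 0.969, 0.804, 0 and 7.42 CPM in sgTaz tumors, with an overlap by sgTaz tumor 5 alone. Ighg2b overlapped more widely, at 6.55 to 54.01 CPM against 0.0636 to 22.2 CPM, with a log2 fold change of -1.86 (-2.65 to -1.52 with 1 tumor left out). Ighg2c, which shares 87.8% of its coding bases with Ighg2b, was low in both groups, with means of 3.80 and 0.226 CPM.

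Igha, the chain of IgA, was the constant gene with a log2 fold change above 0 (0.58, SE 0.70, edgeR adjusted p = 0.661). It was at 1.86, 4.25, 6.86, 3.89 and 3.08 CPM in sgCon tumors and at 0.446, 2.20, 17.1, 3.24 and 6.69 CPM in sgTaz tumors. The sgTaz tumors held both the lowest value (tumor 1) and the highest (tumor 3). Without sgTaz tumor 3 the log2 fold change turned to -0.35. Jchain was at 318, 399, 514, 71.0 and 342 CPM in sgCon tumors and at 3.76, 25.4, 79.0, 18.7 and 131 CPM in sgTaz tumors, overlapping through sgCon tumor 4 (log2 fold change -2.67, edgeR adjusted p = 0.109). With 1 tumor left out, the log2 fold change of Jchain was -3.36 to -2.37 (edgeR adjusted p of 0.0652 to 0.245). Iglc1, Iglc2 and Iglc3 were at 16.1, 24.4 and 12.7 CPM on average in sgCon tumors and at 3.21, 3.68 and 1.95 CPM in sgTaz tumors, with overlap in all 3 genes.

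**Figure D2:**
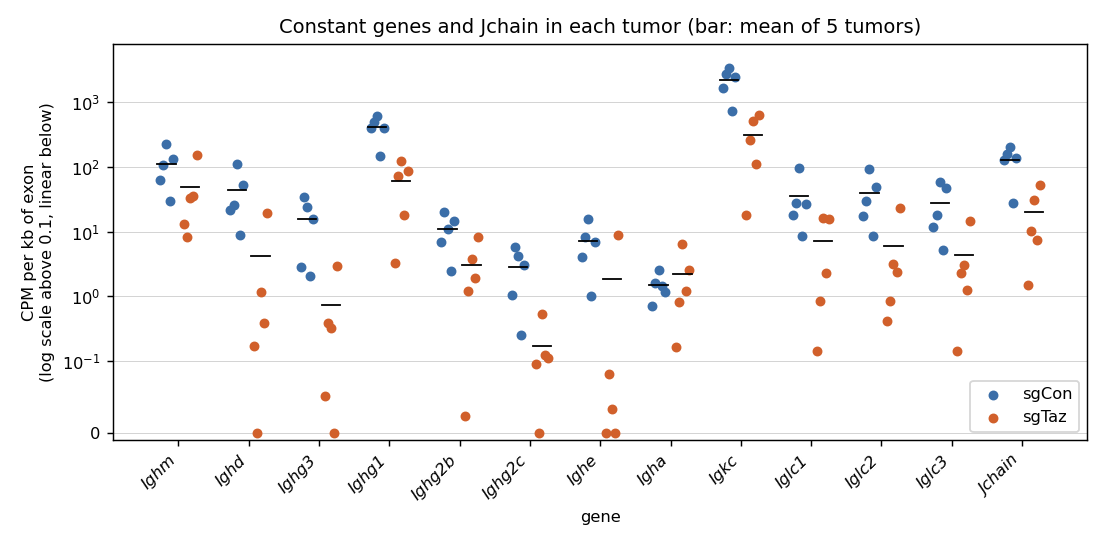
CPM per kb of exon (vertical axis, logarithmic above 0.1 and linear below) of the 12 constant genes and Jchain (horizontal axis) in the 5 sgCon tumors (blue) and the 5 sgTaz tumors (orange), where each point is a tumor, points run from tumor 1 to tumor 5 from left to right, and bars are means. Igkc and Ighg1 do not overlap between groups, Ighd and Ighe have 1 sgTaz point in the sgCon range, and the Igha points are interleaved.

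The isotype was compared within each tumor as a share of the counts of all heavy chain constant genes, each divided by its exon length. IgG took most of this RNA in sgCon tumors, with 82.5, 79.5, 64.5, 78.5 and 68.7%, nearly all from Ighg1. In sgTaz tumors the IgG share was 20.1, 89.1, 75.8, 35.0 and 35.4%. The sgTaz tumors thus divided, with tumor 2 above all sgCon tumors, tumor 3 among them and tumors 1, 4 and 5 below them. The IgM share mirrored it, with 12.2, 15.3, 22.6, 15.7 and 21.5% in sgCon tumors and 77.99, 9.81, 19.7, 62.2 and 53.8% in sgTaz tumors. For IgM the means were 17.5 ± 4.41% and 44.7 ± 28.9% (SD, n = 5 each), and the exact two-sided permutation test, whose smallest p is 0.00794, gave p = 0.127 (0.179 adjusted over the 5 shares tested). For IgG the means were 74.7 ± 7.72% and 51.1 ± 29.7% (exact permutation test, p = 0.143, adjusted 0.179). The spread among sgTaz tumors was wider than among sgCon tumors in both shares. Ighm made up 396 of 546 heavy chain counts in sgTaz tumor 1 (72.5%, 95% Clopper-Pearson interval 68.6 to 76.2%) and 240 of 3272 in sgTaz tumor 2 (7.33%, 6.46 to 8.28%).

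IgD took 4.32, 3.72, 11.1, 4.56 and 8.51% of the heavy chain RNA in sgCon tumors and 0.978, 0, 0.678, 0.671 and 6.81% in sgTaz tumors. Here sgTaz tumor 5 lay among the sgCon tumors and the other 4 below them, and the 0 of 3272 counts in sgTaz tumor 2 allow a share of counts of up to 0.0917%. The exact permutation test gave p = 0.0317 (adjusted 0.0794, means 6.43 ± 3.20% and 1.83 ± 2.81%, SD, n = 5 each), with an adjusted p of 0.0397 without sgTaz tumor 5, 0.0794 to 0.179 without any other tumor and 0.179 without division by length. Since sgTaz tumor 5 had the highest IgD share of the sgTaz tumors, the result without it lends no support. Per length, the ratio of Ighd to Ighm was 0.353, 0.243, 0.489, 0.290 and 0.395 in sgCon tumors and 0.0125, 0, 0.0344, 0.0108 and 0.127 in sgTaz tumors. No sgTaz tumor reached the lowest sgCon ratio, tumor 5 included, but this ratio was not tested.

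IgA was a small share everywhere, and its share was higher in sgTaz tumors. It was 0.137, 0.228, 0.258, 0.755 and 0.185% in sgCon tumors and 0.975, 0.983, 3.77, 2.13 and 0.892% in sgTaz tumors. Every sgTaz tumor was above every sgCon tumor, the nearest being sgTaz tumor 5 and sgCon tumor 4. The means were 0.313 ± 0.252% and 1.75 ± 1.24% (SD, n = 5 each), with p = 0.00794 in the exact permutation test, the smallest it can give, and 0.0397 after adjustment over the 5 shares. With 1 tumor left out the adjusted p was between 0.0397 and 0.179, and it was above 0.05 in 6 of the 10 cases (each sgCon tumor, and sgTaz tumor 3). The share rested on 7, 34, 320, 40 and 92 counts of Igha in sgTaz tumors against 31, 85, 110, 70 and 45 in sgCon tumors, which overlapped. All heavy chain constant genes together had 8490 to 37365 counts in sgCon tumors and 546 to 8254 in sgTaz tumors. In sgTaz tumor 1, the 7 counts were 1.28% of heavy chain counts (95% Clopper-Pearson interval 0.517 to 2.62%), and in sgCon tumor 4 the 70 counts were 0.824% (0.643 to 1.04%).

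Kappa made up nearly all light chain RNA, with 92.2 to 98.5% over the 10 tumors. The lambda share was 2.75, 2.68, 6.75, 3.03 and 4.73% in sgCon tumors and 3.69, 1.51, 4.24, 5.06 and 7.81% in sgTaz tumors. The groups overlapped, with both the lowest and the highest value in sgTaz tumors. The difference was 0.47 percentage points (exact permutation test, p = 0.714, adjusted 0.714). The balance of heavy to light chains also varied. Summed per length, heavy chain constant RNA was 0.293, 0.248, 0.271, 0.258 and 0.241 times light chain constant RNA in sgCon tumors and 0.907, 0.317, 0.318, 0.485 and 0.410 times in sgTaz tumors. All sgTaz ratios were above all sgCon ratios, a comparison chosen after the values were seen and not tested. The ratio of Ighm to Igkc was 0.0369 to 0.0658 in sgCon tumors and 0.735, 0.0315, 0.0655, 0.318 and 0.239 in sgTaz tumors, so that tumors 1, 4 and 5 had more Ighm for their Igkc than any other tumor. In contrast, Jchain to Igkc stayed between 0.0388 and 0.0823 over all 10 tumors.

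**Figure D3:**
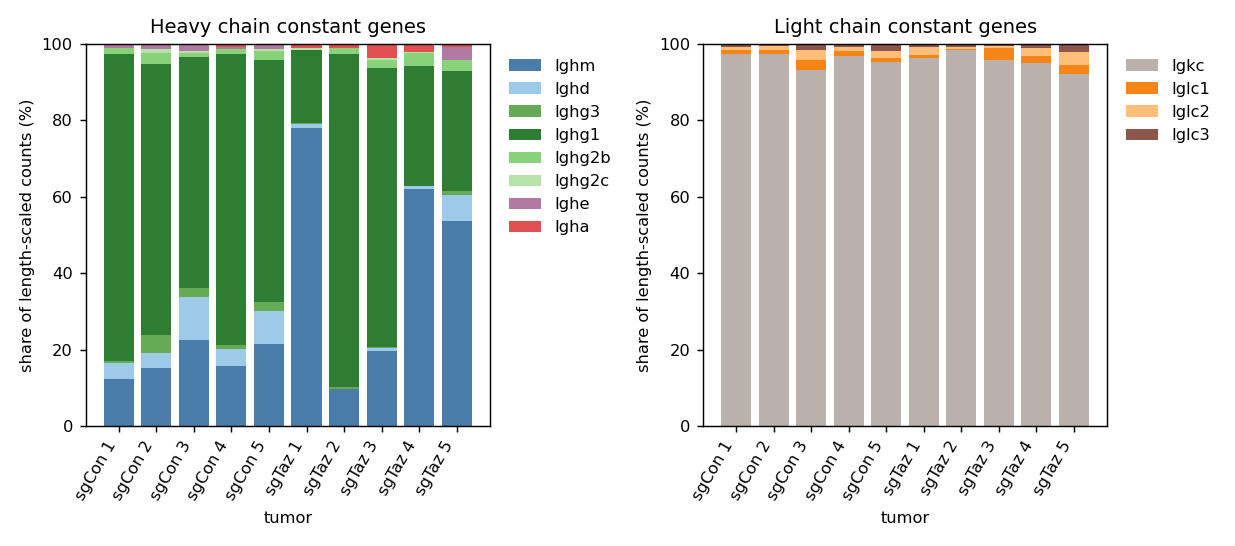
Share of length-scaled counts (vertical axis, percent) of the 8 heavy chain constant genes (left) and the 4 light chain constant genes (right) in each of the 10 tumors (horizontal axis). Ighg1 (dark green) fills most of each sgCon bar and of sgTaz tumors 2 and 3, Ighm (blue) fills 77.99, 62.2 and 53.8% of sgTaz tumors 1, 4 and 5, and Igkc (grey) fills more than 90% of every light chain bar.

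V gene use was described within each tumor as the share of a V gene among the members of its locus, with counts divided by exon length. These shares were not tested. The Igkv genes had 5182, 11393, 7096, 1115 and 4662 counts in sgCon tumors and 40, 360, 2482, 403 and 2357 counts in sgTaz tumors, so that shares in sgTaz tumor 1 are rough. Counts fell on 23 to 79 Igkv genes per tumor, with up to 31.3% of use in 1 gene, and the leading gene differed. In sgCon tumors it was Igkv3-2 (17.5%), Igkv10-96 (6.75%), Igkv3-5 (5.16%), Igkv3-2 (12.8%) and Igkv6-32 (9.15%), in the order of tumors 1 to 5. In sgTaz tumors it was Igkv10-94 (10.5%), Igkv3-1 (31.3%), Igkv15-103 (14.96%), Igkv6-25 (21.4%) and Igkv6-25 (8.11%). The lead in sgTaz tumor 1 rested on 4 of 40 counts (10%, 95% Clopper-Pearson interval 2.79 to 23.7%), and that in sgTaz tumor 2 on 111 of 360 (30.8%, 26.1 to 35.9%). Of the 79 Igkv genes, 33 were among the 10 most used in some tumor, 8 of them in at least 5 tumors and 7 in a single tumor.

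Some V genes took a far larger share in 1 or 2 tumors than in the others. Igkv3-1 took 0.222, 0.220, 0.117, 0.280 and 0.426% of Igkv use in sgCon tumors and 7.63, 31.3, 0.0425, 0 and 0.845% in sgTaz tumors. Its counts in sgTaz tumor 2 (111) exceeded those of every other tumor (0 to 24), and the log2 fold change of 1.20 turned to -0.94 without that tumor. Its neighbor Igkv3-2, the end of which differs at 5 of 60 bases, took 17.5, 3.03, 4.10, 12.8 and 1.53% in sgCon tumors and 0, 6.17, 0.323, 0.250 and 2.79% in sgTaz tumors. By level, Igkv3-2 was at 54.8, 17.5, 18.5, 8.05 and 4.93 CPM against 0, 1.49, 0.429, 0.0809 and 4.80 CPM, without overlap but with sgCon tumor 5 and sgTaz tumor 5 nearly equal. Igkv15-103 reached 14.96% in sgTaz tumor 3 and 0.365 to 4.17% in the other 9. Igkv12-44 (mean share 5.78%) and Igkv6-25 (5.77%) had the highest mean share over the 10 tumors, and sgTaz tumor 4 was the highest for both, at 16.0 and 21.4%. By group, the mean share of Igkv6-25 was 2.72% in sgCon and 8.82% in sgTaz tumors, and that of Igkv12-44 was 5.63 and 5.93%. The highest mean share was that of Igkv3-2 in sgCon tumors, at 7.803%, and that of Igkv6-25 in sgTaz tumors, ahead of Igkv3-1 at 7.97%. These means, and so their order, rested on few tumors. Igkv3-2 was raised by sgCon tumors 1 and 4 (17.5 and 12.8%), Igkv6-25 by sgTaz tumor 4 (21.4%) and Igkv3-1 by sgTaz tumor 2 (31.3%).

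The effective number of Igkv genes, the number of equally used genes that would give the same entropy, was 24.3, 46.6, 46.4, 31.5 and 39.7 in sgCon tumors and 19.9, 16.6, 21.7, 16.1 and 42.2 in sgTaz tumors. All sgTaz tumors except tumor 5 were below the lowest sgCon tumor. A second measure was taken at equal depth, on a scale that cannot be set against the effective number. With 40 counts drawn from each tumor, the expected number of Igkv genes seen was 18.6, 25.4, 25.5, 21.4 and 23.7 in sgCon tumors and 23.0, 17.3, 17.3, 15.7 and 24.2 in sgTaz tumors. By this measure, tumors 2, 3 and 4 of the sgTaz group were below all sgCon tumors, while tumor 1, which has 40 counts in all, lay among them. By position, the 34 Igkv genes within 1000 kb of Igkc took 39.7 to 67.4% of use in the 10 tumors, the 22 genes from 1000 to 2000 kb took 16.5 to 32.2%, and the 23 genes farther away took 11.3 to 29.0%.

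**Figure D4:**
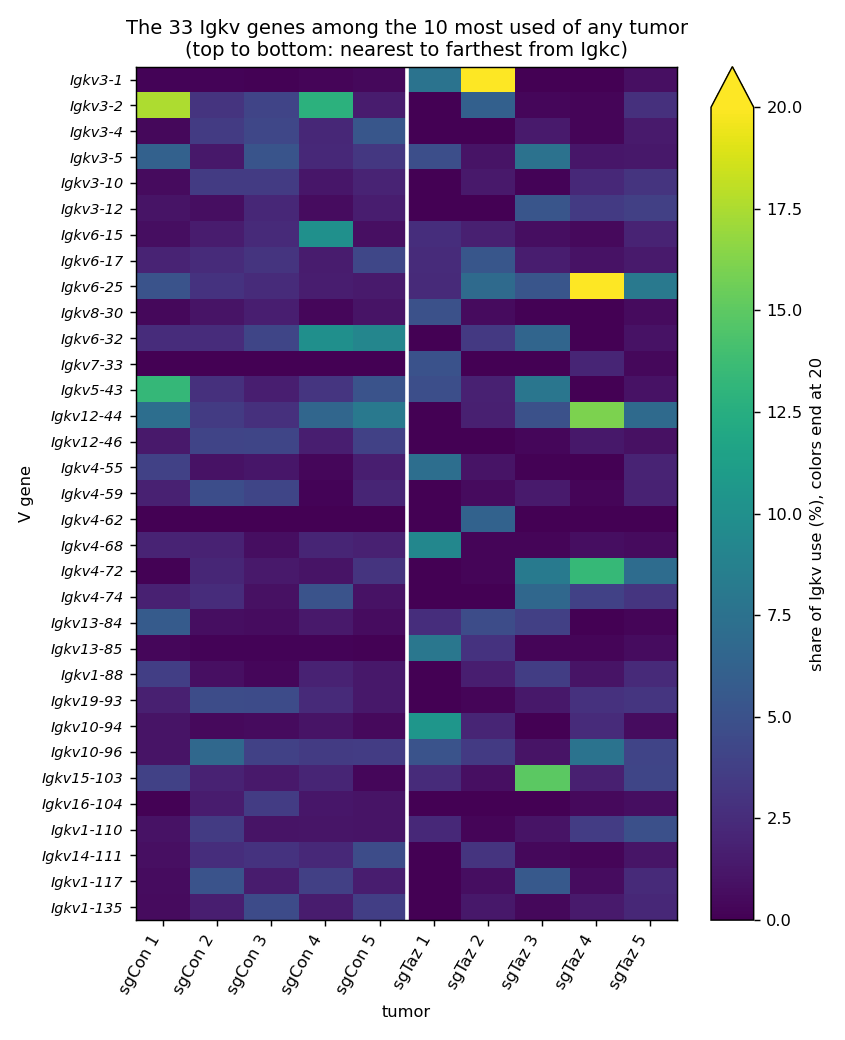
Share of Igkv use (color, percent, ending at 20) of the 33 Igkv genes (rows, from the nearest to the farthest from Igkc) that were among the 10 most used in any tumor, in the 10 tumors (columns, sgCon left of the white line). Igkv3-1 in sgTaz tumor 2 (31.3%) and Igkv6-25 in sgTaz tumor 4 (21.4%) pass the end of the scale, and sgCon tumors 2 and 3 have no gene above 7%.

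The heavy chain V genes present were counted far less than their constant genes. The counts cover 20 of 113 Ighv genes that are not pseudogenes, against 79 of 100 Igkv genes. The ratios below are thus not comparable between loci, and Ighv shares are shares of the 21 Ighv members. Per length, summed Ighv RNA was 0.0185 to 0.114 times summed heavy chain constant RNA in sgCon tumors and 0.0265 to 0.133 times in sgTaz tumors, whereas summed Igkv RNA was 0.229 to 0.556 and 0.245 to 0.767 times Igkc. Ighv genes had 24 to 581 counts in sgCon tumors and 3, 19, 153, 36 and 161 in sgTaz tumors. Ighv2-2 led in 3 tumors, with 40.3% in sgCon tumor 3 and 40.8% in sgTaz tumor 3. Ighv11-2, a V gene known from the antibodies of B-1 cells, took 1.29, 0.957, 1.09, 3.37 and 0.270% in sgCon tumors and 60.7, 21.6, 6.13, 18.7 and 23.5% in sgTaz tumors. These shares did not overlap, but they rested on 2, 7, 5, 1 and 1 counts and on 2, 5, 12, 8 and 44 counts. Without the filter, Ighv11-2 was the member higher in sgTaz tumors at an unadjusted p below 0.05 in edgeR (log2 fold change 2.37, and 9.88% of all genes fitted were higher at this p). Its CPM overlapped between groups. Iglv1 led the lambda V genes in all 10 tumors, with 73.6 to 97.2% of Iglv use.

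Markers of B cells and of lymph node tissue were set beside the immunoglobulin genes. All 14 of the 14 B cell genes tested had log2 fold changes below 0, 12 of them at an unadjusted p below 0.05 in edgeR (all genes, 11.9%), with 0 past the adjusted threshold. Of these 14, 10 had fewer than 5 sgTaz tumors over the minimum of the filter. Without sgTaz tumor 5, the sgTaz tumor with the most B cell RNA, 11 of the 14 were lower at an adjusted p below 0.05 (all genes, 0.868%). The filter and the tumor left out bear on these counts, which lend no support. Summed, the list was at 214, 314, 1285, 109 and 600.4 CPM in sgCon tumors and at 20.7, 22.7, 49.9, 34.7 and 316 CPM in sgTaz tumors, with Cd37, a tetraspanin of B and other leukocytes, its most abundant gene. Ms4a1 was at 19.5, 29.9, 122.8, 7.38 and 52.5 CPM against 0.0636, 0, 2.14, 0.405 and 32.5 CPM, with sgTaz tumor 5 in the sgCon range and the other sgTaz tumors below it (log2 fold change -2.74, adjusted p = 0.229, and -6.01, adjusted p = 0.0417, without sgTaz tumor 5). Glycam1 was at 75.5, 72.7, 298, 19.3 and 67.8 CPM in sgCon tumors and at 0, 0, 0, 0.243 and 237 CPM in sgTaz tumors. In the lymph node stroma and high endothelium list, the most abundant gene by group mean was Ccl21a in sgCon tumors (109 CPM, with Glycam1 at 106.6) and Ltbr in sgTaz tumors (74.8 CPM, with Glycam1 at 47.4), and 6 of 7 genes tested were below 0 and 0 passed an unadjusted p of 0.05. This count rested on sgTaz tumor 5, without which Glycam1 (log2 fold change -10.9, edgeR adjusted p = 0.0410), Ccl19 and Ccl21a, the last 2 being chemokines of lymphoid tissue, were lower at an adjusted p below 0.05 (all genes, 0.868%). Of the 7 genes, 3 had fewer than 5 sgTaz tumors over the minimum of the filter. Glycam1, Ccl19 and Ccl21a were each highest in tumor 5 among sgTaz tumors, so their calls without it lend no support. The list summed to 246, 283, 888, 165 and 353 CPM against 131, 121, 129, 138 and 554 CPM, and its markers Glycam1, Chst4 and Ccl19 were at 0 counts in 3, 4 and 2 tumors. The part of lymph node tissue and of B cell number in the immunoglobulin values was not tested.

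Of the 11 plasma cell genes tested, 9 were below 0, 7 of them at an unadjusted p below 0.05 (all genes, 11.9%), with 0 past the adjusted threshold and 3 past it, all lower, without sgTaz tumor 5 (all genes, 0.868%). Of these 11, 3 had fewer than 5 sgTaz tumors over the minimum of the filter. The tumor left out had the most B cell RNA of the sgTaz tumors, so the calls without it lend no support. Mzb1, a chaperone of antibody assembly, was at 14.2, 17.1, 31.8, 2.61 and 16.3 CPM against 0, 0.7104, 2.46, 0.971 and 4.95 CPM (log2 fold change -3.17, adjusted p = 0.0960 from edgeR). The list did not move as one, since Prdm1 and Xbp1, transcription factors that direct plasma cell formation and secretion and act in other cells too, had log2 fold changes of 0.20 and 0.10, with group means of 22.6 and 25.9 CPM for Prdm1 and 203.5 and 218 CPM for Xbp1 in sgCon and sgTaz tumors (unadjusted p = 0.204 and 0.384 in edgeR). Summed, the list was at 696 to 868 CPM in sgCon tumors and 512 to 698 CPM in sgTaz tumors, and its most abundant gene was Sdc1, the gene of syndecan-1, which epithelium expresses too. Tnfrsf17, the gene of BCMA, had 0 counts in 2 tumors.

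**Figure D5:**
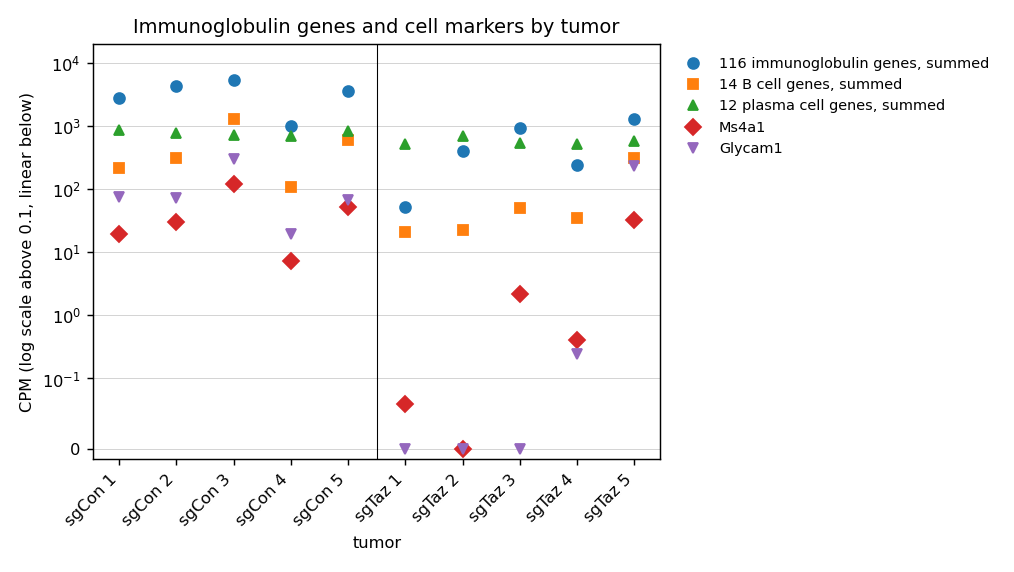
CPM (vertical axis, logarithmic above 0.1 and linear below) of the summed 116 immunoglobulin genes, the summed B cell and plasma cell lists, Ms4a1 and Glycam1 in each tumor (horizontal axis). In sgTaz tumors 1 to 4, Ms4a1 is at 0 to 2.14 CPM and Glycam1 at 0 to 0.243 CPM while the immunoglobulin sum is at 51.6 to 940.0 CPM, and in sgTaz tumor 5 all 3 are near or within the sgCon range.

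Other genes around antibodies gave mixed counts. Of the class switch and germinal center list, 6 genes were tested and 1 passed an unadjusted p of 0.05 downward (all genes, 11.9%), Fas, a death receptor of many cell types (log2 fold change -0.55, adjusted p = 0.129 from edgeR), named after its value was seen. Of the octamer factors, which drive immunoglobulin promoters, 2 of 3 were lower at this p, including Pou2af1, their B cell coactivator, at 26.8, 42.3, 121, 11.4 and 81.1 CPM against 0.382, 1.16, 5.46, 1.21 and 29.2 CPM. Of the V(D)J recombination and pre-B cell list, 3 genes were tested and 2 were lower at this p. Of the B cell survival and homing ligands, 0 of 5 were. Without sgTaz tumor 5, Pou2af1 and 2 genes of the V(D)J list, Vpreb3 and Il7r, were lower at an adjusted p below 0.05 (all genes, 0.868%). In each of these lists, 1 of 3 genes tested had fewer than 5 sgTaz tumors over the minimum of the filter. Pou2af1, Vpreb3 and Il7r were each highest in tumor 5 among sgTaz tumors, so these calls lend no support. Of the antibody receptors and transporters, 8 of 9 tested had log2 fold changes above 0, and 6 were higher at an unadjusted p below 0.05 (all genes, 9.86%). Fcgr2b, the inhibitory receptor of IgG, had a log2 fold change of 0.57 and Fcgrt, the neonatal Fc receptor that recycles IgG, 0.77. Fcmr, the IgM receptor of lymphocytes, had -3.19, at 0 counts in sgTaz tumors 1, 2 and 4. Its edgeR adjusted p was 0.0429 without sgTaz tumor 5, where it was highest among sgTaz tumors, so this call lends no support either. Several of these receptors are carried by macrophages, whose list had 5 of 7 genes higher at an unadjusted p below 0.05. T cell genes were lower at this p in 8 of 8 cases (all genes, 11.9%), and summed to 162, 166, 736, 91.2 and 329.5 CPM against 86.1, 59.99, 72.6, 64.7 and 190.3 CPM. Markers of the tumor epithelium were present in every tumor, with Krt18 (mean of 939.6 CPM) and Krt8 (928 CPM) the most abundant of the list in sgCon tumors and Krt8 (711 CPM) and Krt18 (686 CPM) in sgTaz tumors, and 5 of 6 were lower at this p. Genes of the secretory mammary epithelium summed to 1.29 to 15.2 CPM, with 0 of 1 tested past this p. The part of these cells in the immunoglobulin values was not tested.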

How the data were processed

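RNA of 10 whole tumors, 5 sgCon and 5 sgTaz, was sequenced on a HiSeq 2000. Mapping to mm10 was done by the authors with STAR (2-pass) and the GENCODE annotation (v12 in the methods), and they counted reads per gene with featureCounts of Subread, and the deposited values are these counts, not normalized. Tool versions and the strand setting of the counting are not given in the sources used here. The table holds 5 further columns that match no sample label, which were not used. Tumors were grouped by their titles, and nothing says that a replicate number is shared between groups. Whether tumors came from separate mice is not stated, so p-values measure the spread between these tumors.

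Identifiers were named with GENCODE M21, in which 17860 of 17864 were found. Counts were analysed with edgeR 4.0.16 in R 4.3.3 (TMM normalization, the filter filterByExpr, the quasi-likelihood functions glmQLFit and glmQLFTest, and p adjusted over all genes tested by Benjamini-Hochberg, with a threshold of 0.05). DESeq2 1.42.0 and limma 3.58.1 were alternatives. Log2 CPM used a prior count of 2. Shares used counts divided by exon length and were compared with exact two-sided permutation tests (Python 3.11.15, numpy 2.4.6, pandas 2.3.3, scipy 1.17.1), adjusted over 5 shares. Identities were computed with edlib 1.3.9.post1. Figures were drawn with matplotlib 3.10.9. Intervals (95% Clopper-Pearson) and floors of 3 counts cover counting error only. The scripts were tested on simulated data.

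Named were Wwtr1, the constant genes, Jchain, the 6 V genes of each locus with the highest mean share, the leading V gene of each tumor, and the abundant and defining genes of 12 hand-written lists. Some listed genes are not reported here and were left out of the counts and sums of their lists. The members, lists and tests were chosen with earlier results of these data known. Igkv4-68, the genes without overlap and the listed genes that passed without sgTaz tumor 5 were named after their values were seen. The alternatives were RLE normalization, DESeq2, limma-voom, no filter, at least 10 counts in every tumor, the replicate number as a block, each tumor left out, no division by length, thinned V gene counts, and a total without the 20 most abundant other genes.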

Additional observations from a re-analysis of the deposited data

Results flagged for a closer look

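Dixon's ratio was computed for 42 sets of 5 tumors, namely the log2 CPM of each constant gene and Jchain, the 5 shares, the share of all counts and the effective numbers in each group. It passed the 95% critical value of 0.71 in 5 of them, and chance passes about 1 in 20, here 2.1 of 42. In 3 of the 5 the tumor far from the others was sgTaz tumor 5. Its Ighe was at 3.85 log2 CPM, against -3.01 to -1.98 in the other sgTaz tumors. Its IgD share was 6.81%, against 0 to 0.978%. Its effective number of Igkv genes was 42.2, against 16.1 to 21.7. The same tumor had 3252 counts of Glycam1, where the other sgTaz tumors had 0 to 3. The other 2 were in sgCon tumor 4, the sgCon tumor with the fewest immunoglobulin counts. Its Jchain was at 6.15 log2 CPM, against 8.31 to 9.01 in the other sgCon tumors. Its IgA share was 0.755%, against 0.137 to 0.258%.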

How the results depend on the processing

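In edgeR, 0 immunoglobulin genes were called lower with RLE normalization, no filter, at least 10 counts in every tumor or the replicate block. DESeq2 called 16 lower and limma-voom with sample quality weights 22. With each tumor left out, edgeR called 0 to 15, and 15 only without sgTaz tumor 5, the sgTaz tumor with the most immunoglobulin RNA. Members lower at an unadjusted p below 0.05 numbered 37 of 59 in the fit reported (all genes, 11.9%). Without the filter they numbered 72 of 116 (all genes, 10.4%). They were 3 of 4 with at least 10 counts in every tumor, where fewer members are tested, and 30 to 47 with a tumor left out. For these last fits the share of all genes is not given, so their counts lend no support. Over all 16 alternatives, the median log2 fold change of the members fitted stayed between -3.30 and -2.28. In the fit reported it was -2.60 (all genes, -0.02). Most of these fits used members kept by the filter on low counts. In the fit reported, 55 of 59 such members had fewer than 5 sgTaz tumors over its minimum, so these medians lend no support. The difference in IgA share was 0.93 to 1.65 percentage points with a tumor left out, at adjusted p of 0.0397 to 0.179. That in IgD share was -5.85 to -3.45 and that in lambda share -0.36 to 1.21, below 0 without sgTaz tumor 5. The effective number differed by -14.4 for Igkv and -6.15 for Ighv. The thinned alternative gave another measure, the expected number of genes seen in 40 Igkv or 3 Ighv counts of each tumor, which differed by -3.39 and -0.34 and cannot be set against those sizes, and the depth of sgTaz tumors 1, 2 and 4 limits all V gene shares. Of 455 pairs of a named gene and an alternative, 420 kept direction and side of the threshold, 24 came past the threshold and 11 reversed. No named gene passed the threshold in the fit reported, so none could lose a call, and the 420 do not measure how stable calls are. Igkv3-1 was at -2.29 with limma-voom and -0.94 to 1.52 with a tumor left out, Igkv15-103 at -1.68 to 0.19, Iglv2 at -2.45 to 0.43 and Igha at -0.35 to 0.88, and the cause was not tested.

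Tumors with the same replicate number did not deviate together (correlations of -0.15, -0.24, -0.05, 0.09 and 0.22 for numbers 1 to 5), so the numbers were not taken as pairs. With the replicate block, 0 members were called, and Igha was at -0.027 and Igkv3-1 at -0.113 log2 fold change. In that fit 42 members had an unadjusted p below 0.05 downward. The share of all genes is not given for it, so this count lends no support. The IgA share differed by 1.44 percentage points within numbers (adjusted p = 0.156 in the exact permutation test within numbers, whose design cannot pass 0.05).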
